A study of Homo sapiens with 12 samples.

Results

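The mRNA levels of 37 genes of glycolysis and the pentose phosphate pathway were compared between oral and skin keratinocytes with and without hydrogen peroxide (H2O2). The genes were the rows of the raw count table whose symbol matched a list. The list held enzymes, isozymes, glucose and lactate transporters and regulators of the pathway. They were chosen by name, with earlier results of these data known. They made up 37 of 58735 genes in the table, and 36 of them passed the minimum mean count of 10 and were tested among 16618 genes. The exception was PDK4, a pyruvate dehydrogenase kinase, whose counts were 0 in all HaCaT libraries.

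Both cell types were immortalized human keratinocyte lines kept in DermaLife K Keratinocyte Complete Medium and grown to confluency. HaCaT is a spontaneously immortalized skin line, and TIGK is a gingival line immortalized with telomerase. Each line was left in medium as the control or received 5 mM H2O2 for 3 h, which gave 4 groups of 3 libraries of polyA RNA and 12 libraries in all. The tissue of origin, the donor and the route of immortalization differed together between the lines and cannot be told apart, and nothing in the sources used here says that the 3 libraries of a group came from separate cultures, so p-values measure the spread between these libraries, which may be technical. Total counts ranged from 30426401 to 49034244 per library. All 10 keratinocyte markers on a fixed list, KRT5, KRT14 and TP63 among them, were present in every library, while the fibroblast gene COL1A2 was at 0 in all 12. The summed fibroblast markers reached at most 26.6 CPM (counts scaled to a common library total) in TIGK and 11.2 CPM in HaCaT, beside keratinocyte sums from 38443 to 56544 CPM.

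Glycolysis splits glucose into pyruvate in the cytosol and yields ATP and NADH, and lactate dehydrogenase turns pyruvate into lactate so that NADH is oxidized again. The pentose phosphate pathway branches off at glucose 6-phosphate. Its oxidative steps make NADPH, which glutathione and thioredoxin reductases use to remove peroxides, and its non-oxidative steps exchange sugars between ribose 5-phosphate and glycolysis. Proliferating keratinocytes are known to use glucose heavily and to release lactate through monocarboxylate transporters. The enzyme GAPDH is known to be inactivated by H2O2 at the protein level, which mRNA counts do not report.

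RefSeq promoter windows (GRCh38.p14, 250 bases before to 50 after each start) were matched for 34 of 37 genes, and SLC2A3, PFKFB2 and SLC16A1 had no entry. The sequence ACGTG, the core bound by the hypoxia factor HIF-1, was read on both strands as ACGTG or CACGT, so that the palindrome CACGTG counts on each strand. It occurred in 35.9% of the 64 windows of these genes and in 21.4% of all 35116 windows of the same length. TGACNNNGC, the core of the antioxidant response element, occurred in 10.9% of the 64 windows and in 13.3% of all windows. The windows of PGK1, ENO2 and LDHA are shown because these genes rose in both lines and each window holds ACGTG, and the window of SLC16A3 is shown because it holds the same letters although SLC16A3 fell in TIGK. RPE, which also rose in both lines, had no ACGTG in its windows. HK2, which fell in both, had 6 matches added over all its windows, the highest such total of the 34 genes. This total also depends on how many windows a gene has and counts palindromes on each strand. All 4 windows shown lie on the plus strand and read 5′ to 3′ in lower case, with ACGTG and CACGT in capitals. PGK1 (phosphoglycerate kinase) lies at chrX:78103998-78104297 with 3 matches, ENO2 (enolase 2) at chr12:6914330-6914629 with 1, LDHA (lactate dehydrogenase A) at chr11:18394313-18394612 with 5, of which 4 come from 2 palindromes, and SLC16A3 (the lactate exporter MCT4) at chr17:82228792-82229091 with 2. The letters are a description of these windows and do not show that a factor bound there.
PGK1: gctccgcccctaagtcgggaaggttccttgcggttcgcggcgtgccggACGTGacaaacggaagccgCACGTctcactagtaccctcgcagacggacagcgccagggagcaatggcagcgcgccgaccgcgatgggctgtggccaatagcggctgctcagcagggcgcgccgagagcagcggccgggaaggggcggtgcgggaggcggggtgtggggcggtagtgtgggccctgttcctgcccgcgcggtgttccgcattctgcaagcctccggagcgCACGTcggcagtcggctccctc
ENO2: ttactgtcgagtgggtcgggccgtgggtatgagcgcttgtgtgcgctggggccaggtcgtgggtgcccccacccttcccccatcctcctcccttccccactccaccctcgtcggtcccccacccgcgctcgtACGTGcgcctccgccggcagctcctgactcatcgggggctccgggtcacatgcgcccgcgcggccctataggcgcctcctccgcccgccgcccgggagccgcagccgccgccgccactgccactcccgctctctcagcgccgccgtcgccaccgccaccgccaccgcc
LDHA: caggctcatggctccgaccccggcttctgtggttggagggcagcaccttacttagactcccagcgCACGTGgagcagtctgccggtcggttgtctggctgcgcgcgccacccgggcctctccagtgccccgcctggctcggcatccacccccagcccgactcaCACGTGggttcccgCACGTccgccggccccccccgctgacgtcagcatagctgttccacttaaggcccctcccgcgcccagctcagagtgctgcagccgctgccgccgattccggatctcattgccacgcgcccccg
SLC16A3: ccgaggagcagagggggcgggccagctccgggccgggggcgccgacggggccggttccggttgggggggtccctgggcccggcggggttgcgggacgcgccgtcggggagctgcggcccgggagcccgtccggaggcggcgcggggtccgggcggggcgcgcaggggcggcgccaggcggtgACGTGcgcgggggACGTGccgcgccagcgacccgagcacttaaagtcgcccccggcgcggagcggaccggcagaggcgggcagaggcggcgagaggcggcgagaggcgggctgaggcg

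The first question was how each line responded to H2O2. In TIGK, 11 of the 36 tested genes changed, 5 higher and 6 lower, or 30.6%, beside 23.2% of all genes tested in that comparison (10.2% higher and 12.9% lower), so that the share lay not far above the background. In HaCaT, 22 of 36 changed, 19 higher and 3 lower, or 61.1%, beside 34.1% of all genes (18.9% higher and 15.2% lower). A change was called at an adjusted p below 0.01 in edgeR's quasi-likelihood test on all 12 libraries, where p-values were adjusted by Benjamini-Hochberg across the 16618 genes. The genes called higher in HaCaT were 52.8% of the 36, and the median log2 fold change of the 36 genes was 0.21 in HaCaT and 0.10 in TIGK, against 0.04 and 0.01 over all genes. The changes were small, from -0.80 to 0.67 on the log2 scale in HaCaT and from -0.65 to 0.64 in TIGK.

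The gap between the 2 counts depended on the fit. With each line fitted alone, 15 genes were called in TIGK (8 higher, 7 lower) and 12 in HaCaT (9 higher, 3 lower). In TIGK the count rose to 17 without H2O2-treated HaCaT replicate 1 or replicate 3, and in HaCaT it dropped to 14 without control replicate 2, to 12 without control replicate 3, and to 14 without H2O2-treated TIGK replicate 2. Scaling to total counts split the TIGK calls into 8 higher and 5 lower, and DESeq2 split them into 8 and 6. The share of all genes called in each of these fits is not given here, so these counts were not set against the background. A gene's mRNA level is given per library, so fewer cells with the transcript and less transcript per cell cannot be told apart.

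PGK1, ENO2, LDHA and RPE rose in both lines, and HK2, PFKFB2 and H6PD fell in both. PFKP, BPGM, SLC16A1 and SLC16A3 were called in TIGK alone, and 15 genes were called in HaCaT alone, all of them higher, in the fit of all 12 libraries. This division moved with the fit: DESeq2 also called SLC16A1 lower in HaCaT and GPI and LDHB higher in TIGK, and TPI1, GAPDH and LDHB were called higher in TIGK fitted alone. The remaining 10 tested genes were called in neither line. A call in a single line does not show that the lines differ, and the difference of the responses itself passed the limit for 3 genes, or 8.33%, beside 5.3% of all genes (2.32% higher and 2.98% lower). These were the transporters SLC2A3, SLC16A1 and SLC16A3, all with the lower response in TIGK.

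**Figure D1:**
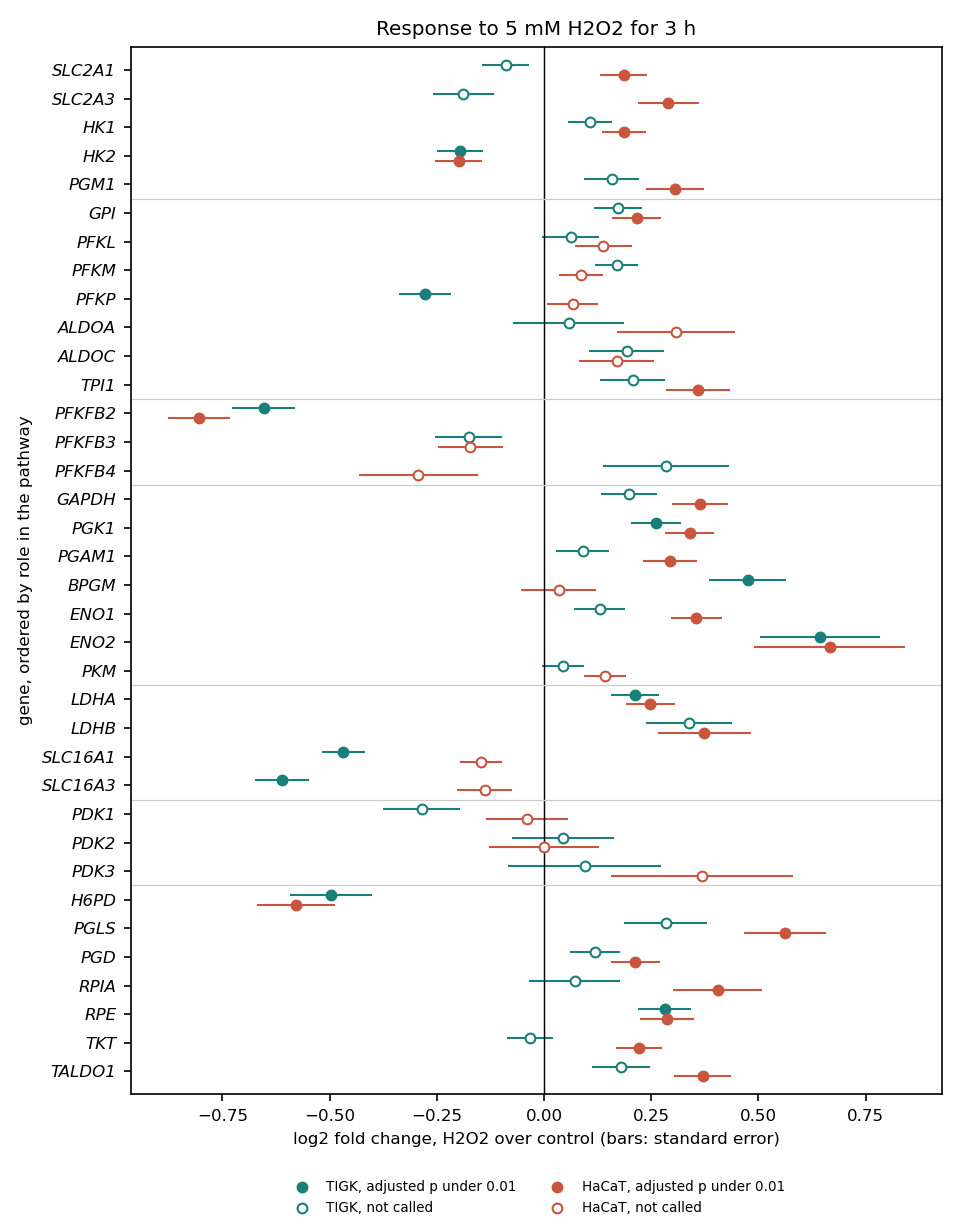
Log2 fold change of the 36 tested genes after H2O2, on the horizontal axis, in TIGK (green) and HaCaT (red), with bars for the standard error. Filled points passed an adjusted p of 0.01. PFKFB2 and H6PD lie left of 0 and ENO2 right of 0 in both lines, while SLC16A1 and SLC16A3 are filled in TIGK only.

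Glucose enters through the transporters SLC2A1 (GLUT1) and SLC2A3 (GLUT3) and is trapped by the hexokinases HK1 and HK2. SLC2A1 rose by a log2 fold change of 0.19 ± 0.05 (SE) in HaCaT (adjusted p = 0.00902) and was -0.09 ± 0.05 in TIGK (adjusted p = 0.221), and its difference of responses did not pass (adjusted p = 0.0259) except without H2O2-treated HaCaT replicate 3 (adjusted p = 0.00419). The HaCaT call of SLC2A1 was lost in 16 of 21 other settings, with adjusted p up to 0.0688. SLC2A3 (chr12:7919230-7936275, minus strand) had 984, 939 and 962 normalized read counts in the TIGK control libraries and 817, 894 and 822 after H2O2, against 825, 812 and 828 in the HaCaT controls and 1016, 991 and 1009 after H2O2. Normalized read counts are counts scaled to the mean library size with TMM factors. Groups of SLC2A3 did not overlap in either line, and the order of the lines turned around: TIGK was the higher line before H2O2 and HaCaT after it. The log2 fold change was 0.29 ± 0.07 in HaCaT (adjusted p = 0.00255) and -0.19 ± 0.07 in TIGK (adjusted p = 0.0448, not called), and the difference of responses was -0.48 ± 0.10 (adjusted p = 0.00413). That call was lost in 10 of 20 other settings.

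The hexokinases moved apart in HaCaT, where HK1 rose (0.19 ± 0.05, adjusted p = 0.00579) and HK2, the inducible isozyme, fell (-0.20 ± 0.05, adjusted p = 0.00614). In TIGK, HK2 fell by the same measure (-0.20 ± 0.05, adjusted p = 0.00894) and HK1 was 0.11 ± 0.05 (adjusted p = 0.11). The HK2 call in TIGK was lost in 14 of 21 other settings, with adjusted p up to 0.0566, and the HK1 call in HaCaT was lost in 14 as well. To compare isozymes with each other, counts were divided by gene length and scaled to a common total per library (TPM). HK2 made up 40.5% ± 0.563 (SD, n = 3) of the summed hexokinase TPM in TIGK controls and 35.5% ± 0.425 after H2O2, and 36.4% ± 1.11 in HaCaT controls and 30.5% ± 0.897 after H2O2. The ranges did not overlap in either line, and the exact permutation test of 3 against 3 libraries gave p = 0.1, the smallest it allows. PGM1, which links glucose 6-phosphate to glycogen, rose in HaCaT (0.31 ± 0.07, adjusted p = 0.00118) and was 0.16 ± 0.06 in TIGK (adjusted p = 0.0643).

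In upper glycolysis, GPI and TPI1 rose in HaCaT and PFKP fell in TIGK. GPI isomerizes glucose 6-phosphate and TPI1 interconverts the triose phosphates, and their log2 fold changes in HaCaT were 0.22 ± 0.06 (adjusted p = 0.00456) and 0.36 ± 0.08 (adjusted p = 0.000729). GPI lost the call in 12 of 21 other settings. PFKP, the platelet-type phosphofructokinase that commits sugar to glycolysis, had 4885, 4526 and 4396 normalized read counts in the TIGK controls and 3901, 3923 and 3578 after H2O2. All 3 treated TIGK libraries lay below the controls (-0.28 ± 0.06, adjusted p = 0.00163), a call that was lost without TIGK control replicate 1 or H2O2-treated TIGK replicate 3 (adjusted p up to 0.0319). The HaCaT libraries held 13019, 13182 and 13286 counts as controls and 12834, 14771 and 13751 after H2O2, which overlap (0.07 ± 0.06, adjusted p = 0.381). PFKL and PFKM, the liver-type and muscle-type isozymes, were called in neither line by edgeR, but DESeq2 called PFKM higher in TIGK (0.18, adjusted p = 0.002). Aldolases split fructose bisphosphate, and ALDOA and ALDOC were also not called, but 99.4% of the ALDOA span and 100% of the ALDOC span are shared with coding genes annotated on the same strand (AC093512.2 and AC005726.1). ALDOA had a mean of 215 raw counts per library, and its level is uncertain because reads over the shared span may not have been counted for it.

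The PFKFB enzymes set the level of the bisphosphate that activates phosphofructokinase. PFKFB2 (chr1:207034366-207081024, plus strand) had 2318, 2101 and 2324 normalized read counts in the TIGK controls and 1502, 1311 and 1474 after H2O2. In HaCaT it had 2934, 3070.3 and 3014 in the controls and 1903, 1634 and 1625 after H2O2. It was the most reduced gene of the pathway in both lines, and no treated library reached the lowest control of its line. The log2 fold changes were -0.65 ± 0.07 in TIGK (adjusted p = 1.52e-06) and -0.80 ± 0.07 in HaCaT (adjusted p = 8.62e-08), which is 1.57-fold and 1.75-fold lower, and both calls held in all 21 other settings at the same adjusted p limit or a looser one. The difference of responses was 0.15 ± 0.10 (adjusted p = 0.385). YOD1, on the opposite strand, overlaps 19.6% of the PFKFB2 span and rose in both lines (0.55 in TIGK and 0.27 in HaCaT). PFKFB3, the isoform with the strongest kinase activity, and PFKFB4 were called in neither line, with PFKFB3 at -0.18 ± 0.08 in TIGK and -0.17 ± 0.08 in HaCaT. The share of PFKFB2 in the summed TPM of the 3 isoforms was 41.0% ± 0.623 in TIGK controls and 32.5% ± 2.98 after H2O2, and 28.6% ± 1.55 in HaCaT controls and 20.7% ± 2.03 after H2O2 (exact permutation p = 0.1 in each line).

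In lower glycolysis, from GAPDH to pyruvate kinase, all 7 genes had a positive log2 fold change in both lines, and 5 rose in HaCaT and 3 in TIGK. BPGM in HaCaT (0.03 ± 0.09) and PKM in TIGK (0.04 ± 0.05) lay within their standard error of 0. Upper glycolysis was close to this, with 7 of 7 genes above 0 in HaCaT and 6 of 7 in TIGK. In HaCaT, GAPDH (0.36 ± 0.07, adjusted p = 0.000189), PGK1 (0.34 ± 0.06), PGAM1 (0.29 ± 0.06), ENO1 (0.35 ± 0.06) and ENO2 (0.67 ± 0.18) were called. These enzymes oxidize the triose phosphate and form ATP (GAPDH and PGK1), move its phosphate (PGAM1) and dehydrate it (the enolases). The adjusted p was 0.000121 for PGK1, 0.000803 for PGAM1, 0.000106 for ENO1 and 0.0045 for ENO2. In TIGK, PGK1 (0.26 ± 0.06, adjusted p = 0.00177), BPGM (0.47 ± 0.09, adjusted p = 0.000411) and ENO2 (0.64 ± 0.14, adjusted p = 0.00145) were called. PKM, pyruvate kinase, passed in neither line (0.04 ± 0.05 in TIGK and 0.14 ± 0.05 in HaCaT). The gene model of PGK1 shares 63.9% of its span with ATP7A on the same strand.

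ENO2, the neuronal enolase, was the gene with the largest rise in both lines. It had 285, 355 and 294 normalized read counts in the TIGK controls and 494, 529 and 436 after H2O2. In HaCaT it had 71.8, 58.6 and 53.3 in the controls and 112, 93.3 and 88.6 after H2O2. Groups did not overlap within a line, the rise was 1.56-fold in TIGK and 1.59-fold in HaCaT, and the HaCaT call was lost in 4 of 21 other settings, including each without HaCaT control replicate 2, control replicate 3 or H2O2-treated replicate 1 (adjusted p up to 0.0337). Enolase mRNA was almost all ENO1 in these cells, at 99.5% ± 0.0415 or more of the summed enolase TPM in every group.

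BPGM makes the bisphosphoglycerate that lowers the oxygen affinity of haemoglobin in red cells and bypasses an ATP-forming step. It had 506, 486 and 464 normalized read counts in the TIGK controls and 652, 703 and 669 after H2O2, so that all treated libraries were higher. In HaCaT it had 726, 798 and 779 in the controls and 723, 768 and 864 after H2O2, which overlap (0.03 ± 0.09, adjusted p = 0.784). The TIGK mean after H2O2 (675 ± 26.1, SD, n = 3) stayed under the HaCaT control mean (768 ± 37.3). The difference of responses was 0.44 ± 0.12 and did not pass in edgeR (adjusted p = 0.0266), whereas it did in DESeq2 (0.46, adjusted p = 0.00611) and in edgeR without H2O2-treated HaCaT replicate 3 (adjusted p = 0.00971).

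LDHA, which turns pyruvate into lactate, rose in both lines, by 0.21 ± 0.06 in TIGK (adjusted p = 0.00679) and 0.25 ± 0.06 in HaCaT (adjusted p = 0.00149), and LDHB, the isozyme that favours pyruvate, rose in HaCaT (0.37 ± 0.11, adjusted p = 0.00832) and was 0.34 ± 0.10 in TIGK (adjusted p = 0.0129). The LDHA call was lost in 6 of 21 other settings in TIGK and in 5 in HaCaT, and that of LDHB in HaCaT was lost in 13. SLC16A1 (MCT1), which carries lactate both ways with protons, had 16222, 16288 and 15981 normalized read counts in the TIGK controls and 12094, 11867 and 11102 after H2O2. The HaCaT libraries held 9367, 9198 and 9007 as controls and 8106, 8524 and 8270.5 after H2O2. All treated libraries lay below the controls of their line, but the step was larger in TIGK (-0.47 ± 0.05, adjusted p = 7.41e-07) than in HaCaT (-0.15 ± 0.05, adjusted p = 0.0206, not called). SLC16A1 was called lower in HaCaT in 5 other settings, among them DESeq2 (-0.16, adjusted p = 0.00232). The difference of responses was -0.32 ± 0.07 (adjusted p = 0.00549) and lost the call in 14 of 20 other settings.

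SLC16A3 (MCT4; chr17:82228397-82261129, plus strand) exports lactate from cells that make much of it. It had 3854, 3839 and 3851 normalized read counts in the TIGK controls and 2502, 2561 and 2494 after H2O2, a 1.53-fold lower level. In HaCaT the counts were 2090, 2040.2 and 1950.2 in the controls and 1807, 2039 and 1682 after H2O2, which overlap. The TIGK groups were each tight and far apart (-0.61 ± 0.06, adjusted p = 6.05e-07), and HaCaT stood at -0.14 ± 0.06 (adjusted p = 0.0883). The difference of responses was -0.47 ± 0.09 (adjusted p = 0.00206), and it was lost without TIGK control replicate 2, H2O2-treated TIGK replicate 2 or replicate 3 (adjusted p up to 0.0172). CSNK1D on the opposite strand overlaps 67.5% of the SLC16A3 span, with 5113 mean raw counts beside 2556, and it fell in both lines (-0.27 in TIGK and -0.28 in HaCaT). The sources used here do not say whether strand was used in counting, so reads of the 2 genes over the shared span may not be told apart, and the part of CSNK1D in the SLC16A3 values was not tested.

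**Figure D2:**
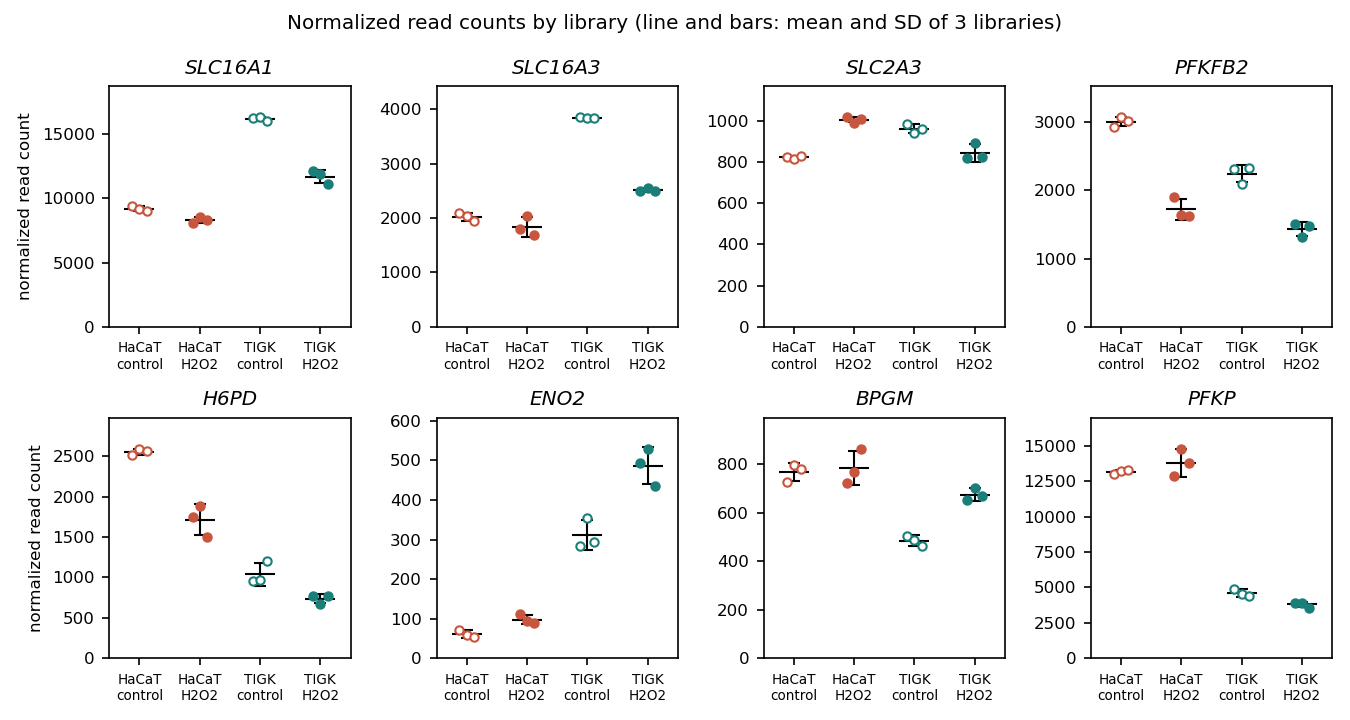
Normalized read counts of 8 genes in each library (points; open for control, filled for H2O2), with the mean and SD of 3 libraries, on linear axes from 0. SLC16A3 sits from 3839 to 3854 in the 3 TIGK controls and from 2494 to 2561 after H2O2, while the 2 HaCaT groups overlap.

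The pyruvate dehydrogenase kinases switch off the enzyme that feeds pyruvate into the mitochondria. PDK1, PDK2 and PDK3 were called in neither response by edgeR on all 12 libraries or by DESeq2, and at an unadjusted p under 0.05 the count was 1 in TIGK and 0 in HaCaT. PDK1 was at -0.29 ± 0.09 in TIGK (adjusted p = 0.0183) and was called there with the line fitted alone (-0.29, adjusted p = 0.00444). PDK3 was at 0.37 ± 0.21 in HaCaT and was called without HaCaT control replicate 1 (0.76, adjusted p = 0.00338). PDK4 had at most 5.80 normalized counts in any library.

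Of the 7 pentose phosphate genes, 6 rose and 1 fell in HaCaT, and 1 rose and 1 fell in TIGK. The HaCaT count ran from 4 to 7 over the other settings with a limit on the adjusted p alone. It was 4 without HaCaT control replicate 3, TIGK control replicate 2 or H2O2-treated TIGK replicate 2. It was also 4 with all libraries when at least 1 CPM in 3 libraries was required. PGLS, the lactonase of the oxidative branch, had 963, 927 and 958 normalized read counts in the HaCaT controls and 1183, 1475 and 1546 after H2O2, a 1.48-fold rise (0.56 ± 0.10, adjusted p = 0.000123). In TIGK it had 1080.1, 977 and 851 as controls and 1216, 1174 and 1152 after H2O2 (0.28 ± 0.10, adjusted p = 0.0279, not called). Groups of PGLS did not overlap in either line. PGD, which makes NADPH in the oxidative branch, rose in HaCaT by 0.21 ± 0.06 (adjusted p = 0.00524), a call lost in 12 of 21 other settings.

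In the non-oxidative branch, RPIA, the ribose phosphate isomerase, had 705, 758 and 705 normalized read counts in the HaCaT controls and 936, 848 and 1086 after H2O2. Its groups did not overlap in HaCaT (0.41 ± 0.10, adjusted p = 0.00364, lost in 7 of 21 other settings), and in TIGK they did, with 678, 585 and 583 as controls and 565, 666 and 705 after H2O2 (0.07 ± 0.11, adjusted p = 0.636). RPE, the epimerase of the same step, rose in both lines, by 0.28 ± 0.06 in TIGK (adjusted p = 0.00168) and 0.29 ± 0.06 in HaCaT (adjusted p = 0.00114), with a difference of responses of -0.00 ± 0.09 (adjusted p = 0.994). TKT and TALDO1, transketolase and transaldolase, which pass carbon units back to glycolysis, rose in HaCaT by 0.22 ± 0.05 (adjusted p = 0.00229) and 0.37 ± 0.07 (adjusted p = 0.000201). The TKT call was lost in 6 of 21 other settings. In TIGK they were at -0.03 ± 0.05 and 0.18 ± 0.07, neither called.

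H6PD, which makes NADPH from hexose phosphate inside the endoplasmic reticulum, went the other way. It had 2516, 2591 and 2562 normalized read counts in the HaCaT controls and 1742, 1887 and 1506 after H2O2. In TIGK it had 953, 965 and 1204 as controls and 767, 677 and 769.7 after H2O2. Treated libraries lay below the controls in both lines, 1.49-fold lower in HaCaT (-0.58 ± 0.09, adjusted p = 5.23e-05) and 1.41-fold lower in TIGK (-0.50 ± 0.10, adjusted p = 0.000545). Both calls held in all 21 other settings, and the difference of responses was 0.08 ± 0.13 (adjusted p = 0.755). For the 7 pentose phosphate genes, the adjusted p of the difference of responses ran from 0.0344 (TKT) to 0.994 (RPE), so none of them was shown to respond differently in the 2 lines. At an unadjusted p under 0.05, 2 of the 7 differed by edgeR, and DESeq2 called 0 at the adjusted limit.

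Next, the lines were compared with each other. At baseline 28 of 36 genes differed, 10 higher and 18 lower in HaCaT, or 77.8%, beside 59.9% of all genes tested (29.1% higher and 30.8% lower). After H2O2, 26 differed, 12 higher and 14 lower, or 72.2%, beside 60% of all genes (30.2% higher and 29.8% lower). Leaving the mitochondrially encoded genes out, or scaling to total counts, gave 9 higher and 17 lower after H2O2, where the higher calls of SLC2A3, PFKFB2 and TALDO1 were lost and HK1, TPI1 and LDHA were called lower, with no called gene changing direction. The median log2 ratio of HaCaT over TIGK was -0.18 at baseline and -0.03 after H2O2, against -0.01 and 0.02 over all genes. The 2 comparisons with TIGK share no library with each other, but each shares its libraries with the responses above.

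At baseline GAPDH (-0.65 ± 0.07), GPI (-0.87 ± 0.06), PGM1 (-1.15 ± 0.07), TPI1, ENO1, PFKM, HK1 and HK2 were lower in HaCaT, as were SLC16A1 (-0.81 ± 0.05) and SLC16A3 (-0.92 ± 0.06). HaCaT was higher for PFKP, all 3 PFKFB isoforms, SLC2A1 (0.31 ± 0.05), PKM (0.23 ± 0.05), BPGM (0.66 ± 0.09), H6PD, PGD (0.40 ± 0.06) and TKT (0.44 ± 0.05). The 3 tested pyruvate dehydrogenase kinases were all lower in HaCaT at baseline, PDK1 by -1.14 ± 0.09, PDK2 by -0.94 ± 0.12 and PDK3 by -1.97 ± 0.20. The largest of the listed adjusted p-values by edgeR was 0.004 (HK1). SLC2A3, ALDOA, LDHB, ENO2 and RPE were also lower, SLC2A3 by a call that was lost in 12 of 21 other settings.

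ENO2 was the gene furthest apart between the lines. Its counts, from 53.3 to 71.8 in the HaCaT controls and from 285 to 355 in the TIGK controls, left HaCaT 5.03-fold lower at baseline (-2.33 ± 0.16, adjusted p = 2.05e-10) and 4.95-fold lower after H2O2 (-2.31 ± 0.16, adjusted p = 1.21e-10). PDK3 had 301, 296 and 318 normalized read counts in the TIGK controls against 111, 55.3 and 62.2 in HaCaT. After H2O2 it had 359, 296 and 323 in TIGK against 110.2, 94.4 and 96.1 in HaCaT, so no HaCaT library came near TIGK in either state, and HaCaT was 3.92-fold and 3.24-fold lower. HaCaT control replicate 1 lay just above the highest treated HaCaT library, and the other two controls lay below all of them. LDHB had 1078, 934 and 851 counts in the TIGK controls against 371, 396 and 403 in HaCaT. After H2O2 it had 1116, 1196 and 1303 in TIGK against 453, 491 and 569 in HaCaT, and HaCaT was 2.45-fold lower at baseline and 2.39-fold lower after H2O2. The coding gene AC010197.2, annotated on the same strand, overlaps 18.3% of the LDHB span. Reads over that part may not have been counted for LDHB.

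On the side of HaCaT, PFKP was the gene furthest above TIGK. It was 2.86-fold higher in HaCaT at baseline (1.52 ± 0.06, adjusted p = 5.64e-14) and 3.63-fold higher after H2O2 (1.86 ± 0.06, adjusted p = 3.5e-15). It made up 71.5% ± 0.456 of the summed phosphofructokinase TPM in HaCaT controls and 70.7% ± 0.549 after H2O2, but 45.2% ± 1.84 in TIGK controls and 38.7% ± 1.31 after H2O2. TIGK therefore held a mix, with PFKL at 31.8% ± 1.35 and PFKM at 23.0% ± 0.516 in the controls. PFKFB3 had 3964, 3786 and 4400.1 normalized read counts in the HaCaT controls and 1788, 1683 and 1745 in TIGK, a 2.33-fold difference (1.22 ± 0.08, adjusted p = 5.2e-11). After H2O2 it had 3562, 3996 and 3234 in HaCaT and 1456, 1656 and 1504 in TIGK, and the gap was 2.34-fold. H6PD was 2.46-fold higher in HaCaT at baseline (1.30 ± 0.09) and 2.32-fold higher after H2O2 (1.21 ± 0.10).

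**Figure D3:**
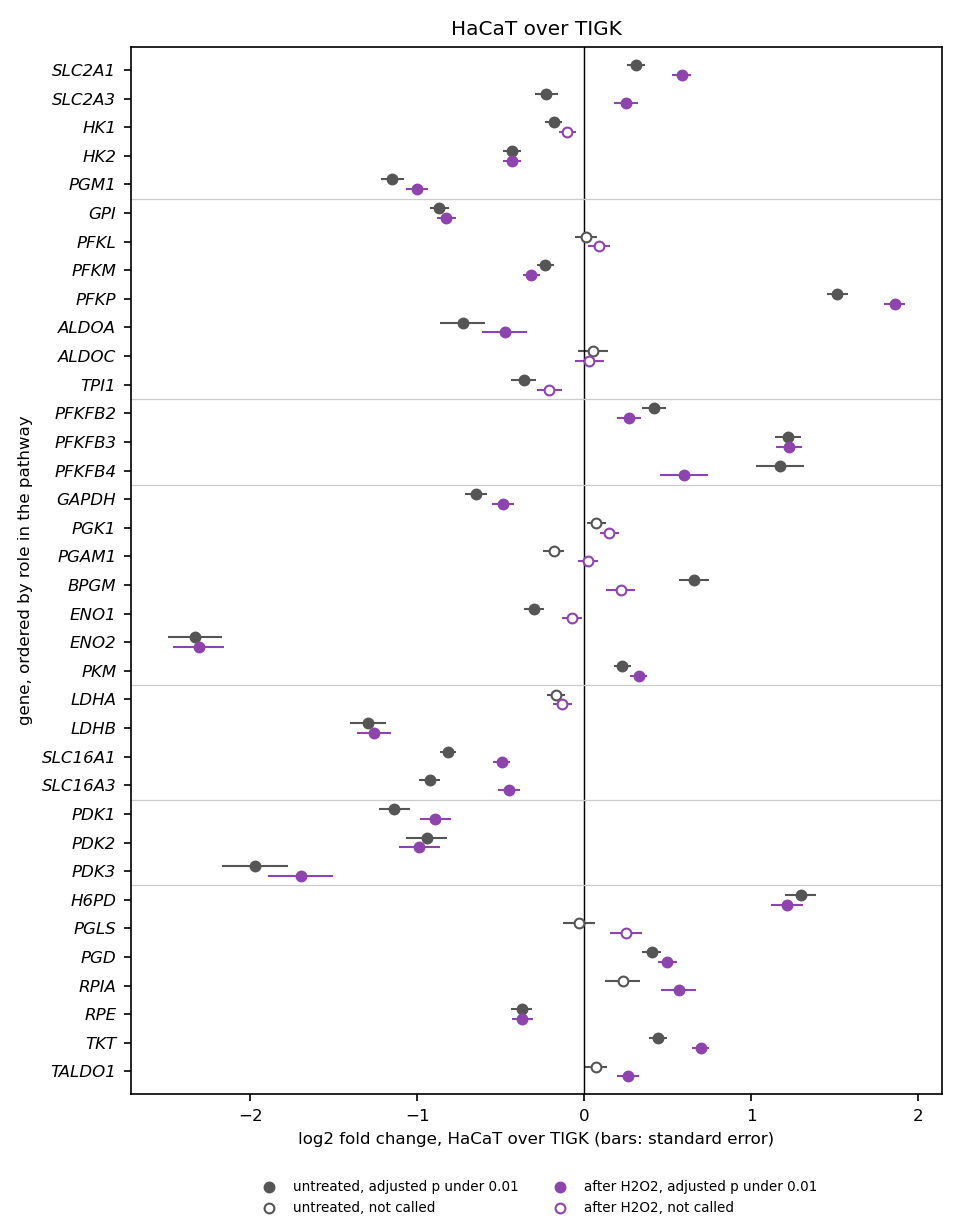
Log2 ratio of HaCaT over TIGK for the 36 tested genes, on the horizontal axis, at baseline (grey) and after H2O2 (purple), with bars for the standard error and filled points for an adjusted p under 0.01. ENO2 and PDK3 lie furthest left and PFKP furthest right in both states.

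**Figure D4:**
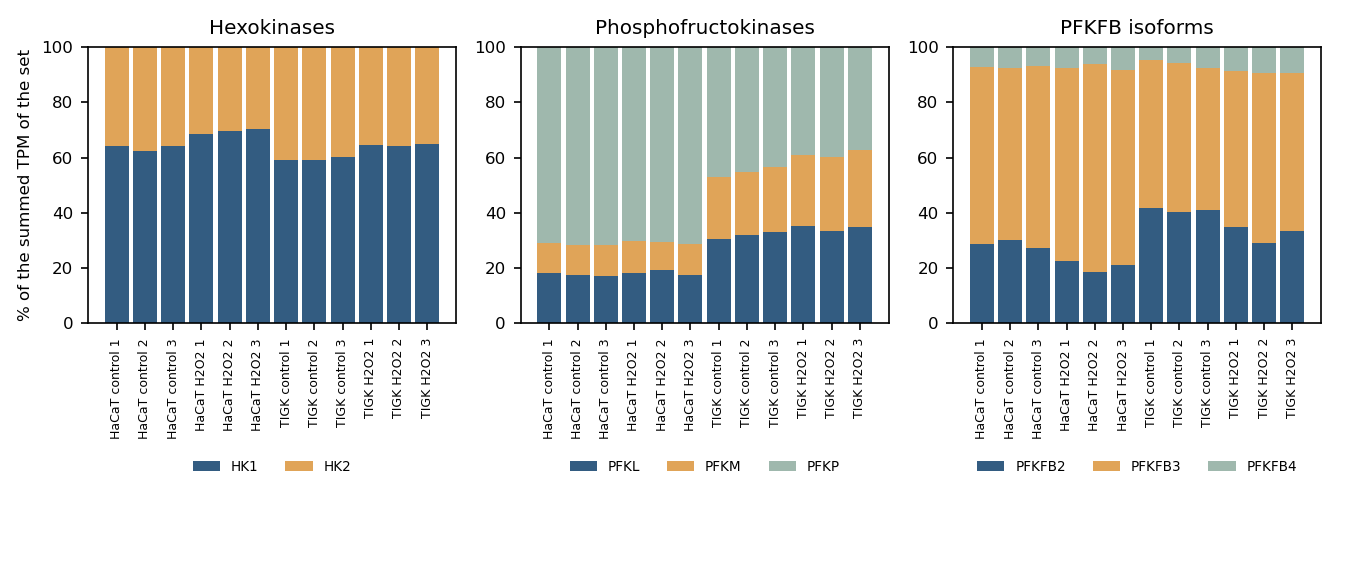
Share of each isozyme in the summed TPM of its set, as stacked bars from 0 to 100% for the 12 libraries. PFKP fills about 70.7 to 71.5% of the phosphofructokinase bars in HaCaT and 38.7 to 45.2% in TIGK on average, and the PFKFB2 part is shorter after H2O2 in both lines.

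The lines kept their calls for 24 genes from baseline to H2O2, and SLC2A3 was the 1 among them whose direction turned. SLC2A3 was 1.17-fold lower in HaCaT at baseline (adjusted p = 0.00821) and 1.19-fold higher after H2O2 (adjusted p = 0.00395), both by edgeR, and the second call was lost in 11 of 21 other settings. HK1, TPI1, ENO1 and BPGM were called at baseline alone, and RPIA (0.56 ± 0.10) and TALDO1 (0.26 ± 0.07) after H2O2 alone. For these 6 the difference of responses did not pass in edgeR on all libraries, with adjusted p from 0.0266 (BPGM, called by DESeq2) to 0.534 (HK1). The calls of HK1 at baseline and of TALDO1 after H2O2 were each lost in 7 of 21 other settings, and HK1 and TPI1 were called after H2O2 as well with total counts or without the mitochondrially encoded genes. PFKFB4 was higher in HaCaT by 1.17 ± 0.14 at baseline and 0.60 ± 0.14 after H2O2, and its difference of responses was 0.58 ± 0.20 (adjusted p = 0.07). Without TIGK control replicate 3 that difference was called (0.80, adjusted p = 0.00586), as was a rise of PFKFB4 in TIGK (0.51, adjusted p = 0.00906) in place of 0.29 ± 0.15. PFKFB2 was higher by 0.42 ± 0.07 at baseline and 0.27 ± 0.07 after H2O2, the latter a call lost in 8 of 21 other settings.

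Summed over all 37 genes, the level per library was 11208 ± 195 TPM in TIGK controls (SD, n = 3) and 12366 ± 395 after H2O2, and 8603 ± 149 in HaCaT controls and 10353 ± 303 after H2O2. The groups did not overlap, and the sums were 1.10 times higher after H2O2 in TIGK and 1.20 times in HaCaT, with exact permutation p = 0.1 in each line, the smallest that 3 against 3 allows. TPM are parts of a whole, and the mitochondrially encoded genes took 12.7% ± 0.514 of TPM in TIGK controls and 6.05% ± 0.231 after H2O2, and 21.8% ± 0.41 in HaCaT controls and 13.3% ± 0.684 after H2O2. With those genes left out of the total, the log2 ratio of the sums was 0.036 in place of 0.14 in TIGK and 0.12 in place of 0.27 in HaCaT. Between the lines, the sum in HaCaT was 0.768 times that in TIGK at baseline and 0.837 times after H2O2. These are log2 ratios of -0.38 and -0.26. With the mitochondrially encoded genes left out of the total, they were -0.22 at baseline and -0.14 after H2O2. The sums by step that follow keep those genes in the total. The lower glycolysis genes carried most of the sum, with 7024 ± 164 TPM in TIGK controls and 5173 ± 85.3 in HaCaT controls, and the pentose phosphate genes were the only step with a higher mean in HaCaT than in TIGK controls apart from the PFKFB isoforms (705 ± 15.4 against 676 ± 13.8 TPM).

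**Figure D5:**
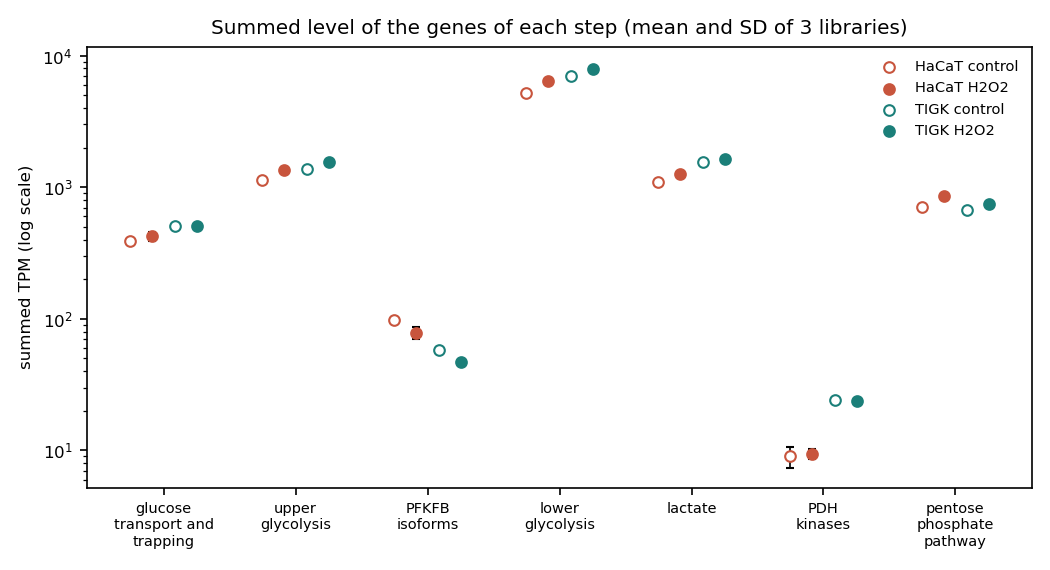
Summed TPM of the genes of each step (vertical axis, log scale), as the mean and SD of 3 libraries per group. Lower glycolysis is highest in every group, and the pyruvate dehydrogenase kinases are lowest, at 24.3 TPM in TIGK controls and 9.01 in HaCaT controls.

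Genes around the pathway were read from 7 further lists. Over all genes tested, 23.2% were called in TIGK (10.2% higher and 12.9% lower) and 34.1% in HaCaT (18.9% higher and 15.2% lower). No test set the count of a list against these shares, and a count near them does not mark out the list. Among 15 tested genes of a list of other isozymes, transporters and nearby enzymes, 1 rose and 2 fell in TIGK and 3 rose in HaCaT. Some genes of this list, DERA among them, are not isozymes of the steps above. DERA, the deoxyribose phosphate aldolase, rose in both lines (0.36 ± 0.07 and 0.40 ± 0.07), the glucose transporter SLC2A6 rose in HaCaT (0.37 ± 0.08), and the transporter SLC16A7 fell in TIGK (-0.37 ± 0.09). Of 7 tested genes of gluconeogenesis and brakes on glucose use, 1 rose and 2 fell in TIGK and 3 rose and 2 fell in HaCaT. PC, pyruvate carboxylase, fell in TIGK by -1.06 ± 0.08 (adjusted p = 3.46e-09), and its difference of responses was -1.10 ± 0.10 (adjusted p = 1.01e-06). TIGAR, a phosphatase that lowers glycolytic flux, fell in HaCaT (-1.01 ± 0.25, adjusted p = 0.00286), and ARRDC4, an inhibitor of glucose uptake, fell in both lines (-0.69 ± 0.06 and -0.57 ± 0.06). Its paralogue TXNIP, also an inhibitor of glucose uptake and named after its values were seen, rose in both lines (0.35 ± 0.06 and 0.47 ± 0.06).

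The glycogen list had 2 higher and 1 lower of 16 tested in TIGK and 7 higher and 2 lower in HaCaT. PYGB, brain glycogen phosphorylase, fell in both lines (-0.88 ± 0.06 and -0.54 ± 0.06), and GYG1, which primes glycogen, and UGP2, which makes its sugar donor, rose in HaCaT (0.46 ± 0.09 and 0.46 ± 0.06). For pyruvate entry, 4 rose and 2 fell of 10 in each line. PDPR and PDP2, which belong to the phosphatase that switches pyruvate dehydrogenase back on, fell in both lines (PDPR -0.98 ± 0.08 in TIGK and -1.08 ± 0.08 in HaCaT, PDP2 -1.06 ± 0.08 and -0.76 ± 0.08), and MPC2, a part of the mitochondrial pyruvate carrier, rose in HaCaT (0.47 ± 0.10). PDP1, the other catalytic subunit of the phosphatase and named after its values were seen, rose in TIGK (0.35 ± 0.07) and was at 0.16 ± 0.07 in HaCaT, not called.

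Of 13 tested genes listed around other sources of NADPH, 2 rose and 1 fell in TIGK and 5 rose in HaCaT. The list also holds linked enzymes that are not themselves sources of NADPH, MTHFD1L of folate metabolism among them. IDH1, the cytosolic isocitrate dehydrogenase, was at 0.27 ± 0.06 in TIGK and 0.40 ± 0.06 in HaCaT. ME2, a malic enzyme, was at 0.22 ± 0.06 and 0.33 ± 0.06, and MTHFD1L fell in TIGK (-0.27 ± 0.06). Of 17 tested genes of side branches, 2 rose and 2 fell in TIGK and 6 rose in HaCaT. PSPH, the last step of serine synthesis, rose in both lines (0.51 ± 0.08 and 0.55 ± 0.08), and GFPT2 (-0.82 ± 0.19) and UAP1 (-0.41 ± 0.06) of hexosamine synthesis fell in TIGK.

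The hypoxia and MYC list had 5 higher and 4 lower of 20 tested in TIGK and 5 higher and 5 lower in HaCaT. ANKRD37 and ADM, both known targets of hypoxia factors, rose in both lines (ANKRD37 1.33 ± 0.22 in TIGK and 1.88 ± 0.22 in HaCaT, ADM 1.22 ± 0.06 and 0.37 ± 0.07), and ARNT2, a partner of those factors, fell in TIGK (-1.45 ± 0.29). These genes were named for the size of their change, and the list did not move in a single direction. Mean normalized counts of NDRG1 went from 9644 to 6195 in HaCaT and from 18211.5 to 17935 in TIGK. Those of VEGFA went from 6628 to 6693 in HaCaT and from 6551 to 7343 in TIGK. BNIP3 went up in both lines, from 1197 to 1750 in HaCaT and from 2546 to 3445 in TIGK. After their values were seen, HIF1A and MYC were picked for mention as the best known regulators of these enzymes. HIF1A fell in TIGK (-0.37 ± 0.05, adjusted p = 2.6e-05), and MYC rose in TIGK (0.76 ± 0.05, adjusted p = 1.71e-09) and neither was called in HaCaT. The difference of responses was -0.33 ± 0.07 for HIF1A (adjusted p = 0.00787) and 0.90 ± 0.07 for MYC (adjusted p = 1.44e-07), both by edgeR. The part of either gene in the values of the glycolytic genes was not tested.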

How the data were processed

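RNA-seq was made by the authors from polyA RNA of HaCaT and TIGK, 3 libraries per group. Per the labels and the study's methods, the authors mapped reads to GRCh38/hg38 with HISAT2 (2.0.5 or 2.0.0 in the submitters' processing notes) and counted them per gene with featureCounts 1.5.0-p3. The annotation release, strand and handling of multi-mapping reads are not given in the sources used here. The deposited values were raw counts. Some treated libraries carry another formula in the treatment label, and all were taken as H2O2 from the treatment protocol. The deposited fold changes and p-values were not used.

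The genes and lists were chosen with earlier results of these data known. Counts were fitted with edgeR 4.0.16 (R 4.3.3) with TMM scaling, 1 mean per group and a mean raw count of at least 10, and checked with DESeq2 1.42.0. The limit was an adjusted p of 0.01, the standard error is the log2 fold change over the square root of the F statistic, and TPM came from counts and the deposited gene lengths. Named were, per comparison, the genes past the limit, with every library for the 5 largest changes and for each difference of responses called, and at most 3 genes per further list. Other settings were each pair of groups alone, other scalings and filters, a replicate block, other limits, and leaving out each library. Total counts of 30426401 to 49034244 leave the spread between libraries as the main error.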

Additional observations from a re-analysis of the deposited data

Results flagged for a closer look

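The transporters SLC2A3, SLC16A1 and SLC16A3 differed between the lines in their response to H2O2 by the test of the difference itself, an interaction contrast in edgeR. The difference of TIGK minus HaCaT was -0.48 for SLC2A3 (adjusted p = 0.00413), with TIGK at -0.19 and HaCaT at 0.29. It was -0.32 for SLC16A1 (adjusted p = 0.00549), with TIGK at -0.47 and HaCaT at -0.15. It was -0.47 for SLC16A3 (adjusted p = 0.00206), with TIGK at -0.61 and HaCaT at -0.14. These were 3 of 36 tested genes, or 8.33%, beside 5.3% of all genes. The call was lost in 10 of 20 other settings for SLC2A3, 14 of 20 for SLC16A1 and 3 of 20 for SLC16A3. Each was lost without TIGK control replicate 2, and without H2O2-treated TIGK replicate 2 or replicate 3. CSNK1D on the opposite strand overlaps 67.5% of the SLC16A3 span, and its part in the SLC16A3 values was not tested. The groups of 3 libraries are too small for a test of single libraries that stand apart.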

How the results depend on the processing

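Direction was kept for all called genes in each of the 1977 values under other settings, 276 of which lost the call. Settings that changed only the limit reused the main fold changes, so direction could not turn there. No call could be lost at an adjusted p under 0.05. The 276 also include genes that missed only an absolute log2 fold change over 1. The counts that follow are given without the share of all genes called in the same setting, so they were not set against the background. For TIGK the number of genes called was 17 with no filter on low counts, 20 at an adjusted p under 0.05, and 8 to 17 with a library left out (17 without H2O2-treated HaCaT replicate 1 or 3). For HaCaT it was 12 with the groups alone, 14 with at least 1 CPM in 3 libraries, and 12 to 22 with a library left out. With an absolute log2 fold change over 1, 0 were called in either response or in their difference by edgeR, whatever the p, since the largest change was -0.80, and 9 and 6 were called between the lines at baseline and after H2O2, where leaving out a library gave 26 to 30 and 23 to 26. The difference of responses gave 5 by DESeq2, 1 with no filter, 7 at an adjusted p under 0.05, and 0 to 5 with a library left out, with 0 without TIGK control replicate 2 (8 at an unadjusted p under 0.05), H2O2-treated TIGK replicate 2 (9) or replicate 3 (7), 1 without HaCaT control replicate 1, HaCaT control replicate 2, H2O2-treated HaCaT replicate 1 or TIGK control replicate 1, and 5 without H2O2-treated HaCaT replicate 3 or TIGK control replicate 3. Replicate numbers did not pair the libraries (correlations of same-numbered deviations from -0.03 to 0.01), and the replicate block gave 9 genes in TIGK, 16 in HaCaT, 27 at baseline, 26 after H2O2 and 1 for the difference.

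The log2 ratio of the summed level without mitochondrially encoded genes was 0.036 for TIGK, 0.12 for HaCaT, -0.22 at baseline and -0.14 after H2O2, and as a share of raw counts it was -0.21 at baseline and -0.089 after H2O2. The cause of the last 2 shifts was not tested. Leaving out a library gave 0.13 to 0.17, 0.25 to 0.29, -0.40 to -0.37 and -0.28 to -0.23. As a share of raw counts the PFKFB2 difference was -9.78 percentage points for HaCaT and -13.6 at baseline. Depth limits what can be said of genes with few counts, such as PDK4 and PDK3.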
